A study of Mus musculus with 24 samples.

Results

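Male C57/Bl6 mouse embryonic stem cells (mESCs) were differentiated after transduction with either of 2 short hairpin RNAs against Smarcc1, Smarcc1.6 and Smarcc1.7. The libraries described here are the 4 of Smarcc1.6 and the 4 of Smarcc1.7, paired by harvest on day 4, 5, 6 or 7, which makes 8 of the 20 libraries with values. All cultures were expanded in 2i medium, weaned into serum medium to start differentiation, given the hairpin virus on day 2 and selected with puromycin from day 3. The other 12 libraries carry 2 hairpins against Smarca4 (Smarca4.4 and Smarca4.6, 8 libraries) or a nonsilencing hairpin (Nons, 4 libraries) in the same cells on the same days. The sample titles give the hairpins, and a genotype label that calls every knockdown a Smarcc knockdown was not followed. Each hairpin has 1 library per day and 1 culture series, so hairpin and culture cannot be told apart. The 4 days of a series are also not independent replicates: p-values below measure how steady a difference was from day to day. In these bulk libraries fewer cells of a type and less RNA per cell cannot be told apart either.

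Smarcc1, also called Baf155, is a core subunit of BAF, the mammalian SWI/SNF chromatin remodelling complex. It forms the scaffold on which the other subunits assemble with the ATPase Smarca4, and BAF of this composition is required for self-renewal of mESCs and for their exit towards the germ layers. A hairpin is processed into a short guide RNA that is loaded into Argonaute and directs cleavage of transcripts with a full match, while a match to the guide's seed, its bases 2 to 8, can lower other transcripts weakly. Hairpins with different seeds and different sites in the same gene are therefore commonly compared to separate loss of the target from effects of a guide sequence or a culture.

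The guides of the hairpins are shown because their seeds differ, with the seed in capitals, each 22 bases long and read 5′ to 3′ from the published hairpin oligos.
Smarcc1.6 guide: tGTAACTGcttcttcatcctgc
Smarcc1.7 guide: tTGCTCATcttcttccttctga
The guides had the same base at 13 of 22 positions. The sites they match in full lie in the coding sequence of Smarcc1 and are shown as the sense strand of the transcript.
Smarcc1.6 site: gcaggatgaagaagcagttaca
Smarcc1.7 site: tcagaaggaagaagatgagcaa
The Smarcc1.6 site is at chr9:110177472-110177493 on the plus strand of mm10, in exon 13 of 28, starting at base 1227 of a 3315 base coding sequence. The Smarcc1.7 site is at chr9:110173911-110173932 in exon 11, starting at base 1068. In the spliced transcript of 5717 bases the sites start 159 bases apart, and both are present in 4 of 6 coding Smarcc1 transcripts of GENCODE M21. Apart from Smarcc1, 0 genes had the full site of either guide in their longest coding transcript.

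The libraries held 21658387 to 22472113 reads for Smarcc1.6 and 15754138 to 22070824 reads for Smarcc1.7, and 13296 of 25965 entries had a mean log2 rpm (reads of a gene scaled to the size of its library) of at least 0 over all 20 libraries and were tested. Reads outside the listed genes took 6.40% to 8.02% of the Smarcc1.6 libraries and 8.87% to 14.4% of the Smarcc1.7 libraries, highest in Smarcc1.7 on day 5. All 11 core pluripotency genes and 15 of 16 naive pluripotency genes of the lists used here were among the tested genes, as the cell type label requires. The summed level of core pluripotency genes ran from 6993 rpm down to 2691 rpm in Smarcc1.6, from 6612 to 2307 rpm in Smarcc1.7 and from 6221 to 1672 rpm in Nons.

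The knockdown was deeper with Smarcc1.6 on each of the 4 days. Smarcc1 was at 163, 61.5, 43.6 and 71.5 rpm on days 4, 5, 6 and 7 with Smarcc1.6, from 980 to 3581 reads. With Smarcc1.7 it was at 192, 109, 76.4 and 80.9 rpm, from 1203 to 4245 reads. Nons had 451, 259.8, 127 and 172 rpm on these days, above both hairpins on each day. As a percent of same-day Nons, Smarcc1.6 left 36.3%, 23.7%, 34.3% and 41.7% and Smarcc1.7 left 42.7%, 42.0%, 60.1% and 47.2%. The hairpins were close on days 4 and 7 and far apart on days 5 and 6: on the log2 scale Smarcc1.6 minus Smarcc1.7 was -0.23, -0.83, -0.81 and -0.18. Averaged over days the difference was -0.51 ± 0.16 (SE from limma with day as a factor, 4 days), with an unadjusted p of 0.0103 and an adjusted p of 0.17, so it did not pass 0.05 among all tested genes. Of all tested genes, 9.03%, 20.8%, 18.5% and 18.95% lay further below 0 than Smarcc1 on days 4 to 7, so on days 5 to 7 many genes differed as much as the target itself.

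**Figure D1:**
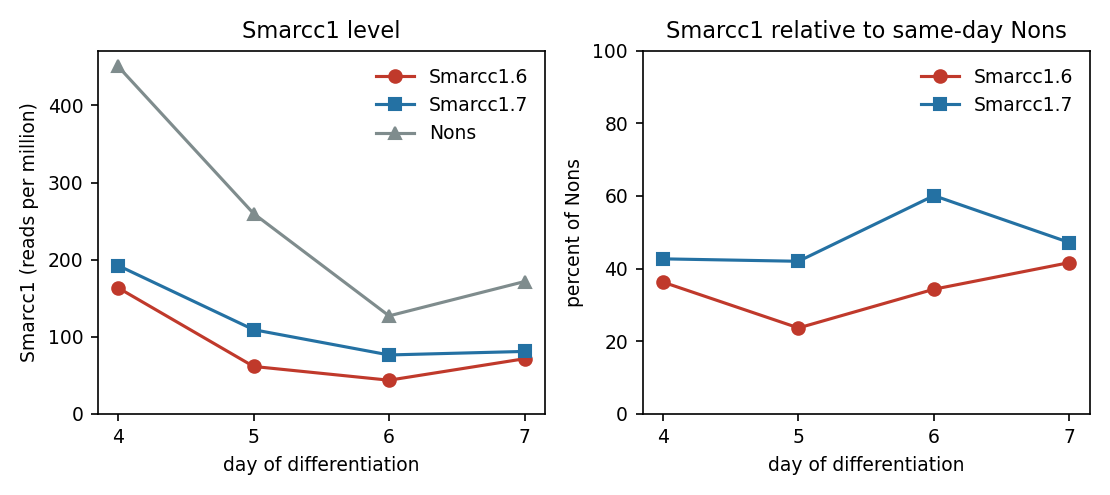
Smarcc1 level by day of differentiation in rpm (left, with Nons) and as a percent of the same-day Nons library (right). Each point is 1 library. Smarcc1.6 lies below Smarcc1.7 on each day, and the gap is widest on days 5 and 6, at 23.7% against 42.0% and 34.3% against 60.1%.

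Across the transcriptome the hairpins were alike on day 4, diverged on days 5 and 6 and were alike again on day 7. More than 2-fold differences were found for 114 of the 13296 tested genes on day 4 (0.857%), 2310 on day 5 (17.4%), 1641 on day 6 (12.3%) and 82 on day 7 (0.617%). On days 5 and 6 most of these were lower in Smarcc1.6, 2009 (15.1%) against 301 (2.26%) genes on day 5 and 1476 (11.1%) against 165 (1.24%) on day 6. On day 7 most were higher, 61 (0.459%) against 21 (0.158%). The days with the largest gap in Smarcc1 were also the days with the most genes apart, over 4 days only. Smarcc1 was itself among the genes moved by the transcript length trend described below. Its larger gap on days 5 and 6 was not kept once that trend was removed. The daily differences of all genes correlated at r = 0.82 between days 5 and 6, at 0.44 between days 5 and 7 and at 0.58 between days 6 and 7. Day 4 correlated with the other days at 0.02 to 0.06 (13296 genes, a description across genes that share libraries).

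**Figure D2:**
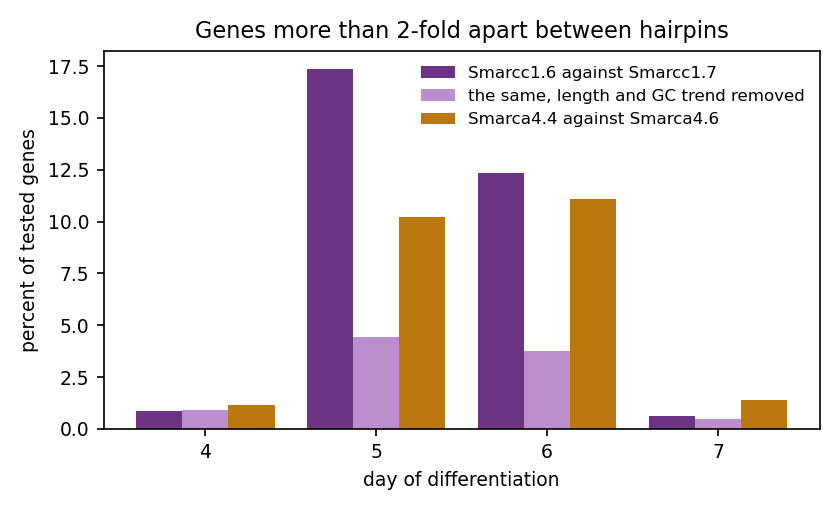
Percent of tested genes (vertical axis) more than 2-fold apart between Smarcc1.6 and Smarcc1.7 on each day, the same after removing the trend with transcript length and GC content, and for the pair of Smarca4 hairpins. Each bar compares 2 libraries; days 5 and 6 stand at 17.4% and 12.3% for the Smarcc1 pair against under 1% on days 4 and 7.

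With all 4 days in the fit, 0 of 13296 genes passed an adjusted p of 0.05 (limma with Benjamini-Hochberg adjustment), the lowest adjusted p being 0.153. At an unadjusted p under 0.05 there were 3665 genes (27.6%), 1373 higher (10.3%) and 2292 lower (17.2%) in Smarcc1.6. The day-4 libraries decided this count: without day 4, 3542 genes passed the adjusted threshold (26.6%), 1118 higher (8.41%) and 2424 lower (18.2%). Leaving out day 5 or day 6 gave 0 genes and leaving out day 7 gave 1. Counts over days 5 to 7 below come from the fit without day 4, which leaves 3 days per hairpin. With each library centred on its median gene, which moves the median difference of all genes over days 5 to 7 from -0.09 to 0.05, that fit called 2536 genes higher and 2093 lower, so the larger share of lower genes depended on the scaling. A fit with a slope of the difference over days called 0 genes, with 46 at an unadjusted p under 0.05 (0.346%).

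The difference followed transcript length. Genes were put in 5 groups by the length of 1 GENCODE transcript each, chosen with preference for the longest coding sequence. Genes without a coding transcript were kept. Lengths ran from 125 to 1599 bases in the shortest group to at least 4840 bases in the longest. On day 5 the median difference went from 0.40 in the shortest group to -0.70 in the longest, and on day 6 from 0.43 to -0.79. On day 7 it went from 0.20 to -0.14, and on day 4 all 5 groups had medians between -0.003 and 0.02. The correlation of the difference with log2 length was -0.02, -0.44, -0.58 and -0.41 on days 4 to 7 (13050 genes), and with GC content 0.08, -0.44, -0.16 and 0.07. Set against the mean of the 5 series of the same day, values went up with length in Smarcc1.7 on days 5, 6 and 7 (r = 0.47, 0.52 and 0.34) and went down with length in Smarcc1.6 on days 5 and 6 (r = -0.32 and -0.36). Long and short transcripts of a library thus moved apart as whole groups, and whether this came from the cells or from RNA and library preparation was not tested.

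**Figure D3:**
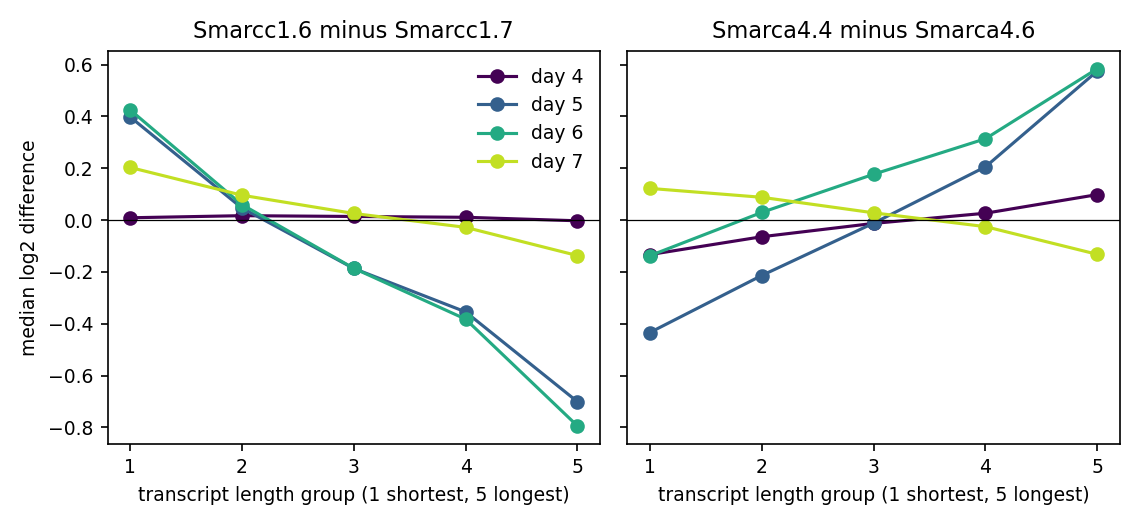
Median log2 difference between hairpins (vertical axis) in 5 groups of tested genes ordered by transcript length (horizontal axis), by day, for the Smarcc1 pair (left) and the Smarca4 pair (right). The Smarcc1 lines are flat on day 4 and slope down on days 5 and 6, to -0.70 and -0.79 in the longest group, while those of Smarca4 on these days slope up.

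Smarcc1 is a long transcript and carried this trend too. Among the 1572 tested genes within 0.25 log2 units of its length, the median difference was -0.61 on day 5 and -0.66 on day 6, against -0.83 and -0.81 for Smarcc1, and 37.3% and 40.4% of these genes were further down. On day 4, where the trend was absent, 8.97% were further down. With the length and GC trend removed from each library, Smarcc1 was at -0.24, -0.25, -0.17 and -0.09 on days 4 to 7. The gap between the hairpins thus remained below 0 on each day, and its larger size on days 5 and 6 was not kept. Over the transcriptome, 2-fold differences after this step numbered 118, 576, 493 and 64 genes on days 4 to 7, or 0.904%, 4.41%, 3.78% and 0.490% of the 13050 genes with a length. With day 4 left out as well, 2931 genes passed (22.5%), 1587 higher (12.2%) and 1344 lower (10.3%). Of the genes called higher and lower without the step, 581 of 1118 (52.0%) and 889 of 2424 (36.7%) were called in the same direction with it. They made up 36.6% and 66.1% of the calls with the step.

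Set against Nons, the order of the hairpins depended on the measure and on single days. Smarcc1.6, with less Smarcc1, differed from Nons at 1262 of 13296 genes (9.49%), 769 higher and 493 lower, and Smarcc1.7 at 2978 (22.4%), 1997 higher and 981 lower (limma on all 20 libraries, adjusted p under 0.05). Both counts use the same 4 Nons libraries. The order turned without day 6, with 381 genes for Smarcc1.6 and 118 for Smarcc1.7, and without day 7, with 561 and 403. With the length and GC trend removed the counts were 2429 and 3163, and most genes were then lower than in Nons, 1317 against 1112 for Smarcc1.6 and 1844 against 1319 for Smarcc1.7. Euclidean distances over all entries, in log2 units, gave the opposite order on 3 of 4 days. Smarcc1.6 lay 111, 128, 140.3 and 149.8 from same-day Nons on days 4 to 7 and Smarcc1.7 lay 101, 114, 150.1 and 145. The difference in distance was 4.89 ± 10.4 (SD, n = 4 days), with an exact sign-flip permutation p of 0.38, two-sided, where 0.13 is the smallest the design allows. Distances between the hairpins were 79.1, 126, 122 and 90.3 on days 4 to 7.

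Over all entries, the hairpins differed in differentiation stage by less than the spread between days. A line was drawn from each Nons library to that of the next day, each library was set at the nearest point of it, and its harvest day was subtracted. Smarcc1.6 was at 0.11, -0.33, -0.50 and -0.32 days and Smarcc1.7 at 0.12, -0.34, -0.44 and -0.29 days on days 4 to 7. Smarcc1.6 minus Smarcc1.7 was -0.008, 0.008, -0.06 and -0.03 days, with a mean of -0.02 ± 0.03 (SD, n = 4 days, exact sign-flip permutation p = 0.38, two-sided). Over the 500 most variable genes it was -0.0717 ± 0.0651 days, larger than its spread (exact sign-flip permutation p = 0.25). By day it was then 0, -0.15, -0.09 and -0.04 days, with both day-4 libraries at the start of the path. Over the tested genes alone the difference had the other sign, 0.01 ± 0.12 days. Positions earlier than day 4 or later than day 7 cannot occur. Without a reference to Nons, Smarcc1.7 of day 6 was nearer to Smarcc1.6 of day 7 (106) than to Smarcc1.6 of day 6 (122), while Smarcc1.6 of day 5 was nearest to Smarcc1.7 of its own day (126). Within a series, days 6 and 7 lay 129.9 apart for Smarcc1.6 and 100.3 for Smarcc1.7.

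Across genes, the hairpin difference was weakly related to how steeply a gene changes over differentiation. The slope per day was taken from the Nons and Smarca4 libraries, which share no library with the 8 described here, and its correlation with the hairpin difference was r = -0.19 (rho = -0.18, 13296 genes). By day it was -0.03, -0.18, -0.16 and -0.17. The correlation with the Smarca4 knockdown against Nons was r = -0.14, and by day 0.18, -0.18, -0.19 and -0.03, so its sign was positive on day 4. With the difference between the Smarca4 hairpins, a pair aimed at another gene, it was r = -0.48 (rho = -0.51), and by day -0.02, -0.10, -0.59 and 0.32. With the length and GC trend removed from the Smarcc1 libraries these values were -0.20 for the slope, -0.02 for the knockdown and -0.23 for the Smarca4 pair. The Smarca4 pair had the same shape over time: 1.15%, 10.2%, 11.1% and 1.38% of genes were over 2-fold apart on days 4 to 7, and 0 genes passed in the fit over 4 days (1036 genes, 7.79%, at an unadjusted p under 0.05). A wide separation on days 5 and 6 was thus seen with both pairs of hairpins. The Smarca4.4 library of day 5 had 6829596 reads, the fewest of the 20 libraries, and its part in the day-5 value was not tested.

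Gene groups were compared by their counts and medians, beside those of all tested genes, whose medians were 0.01, -0.13, -0.17 and 0.03 on days 4 to 7. In the fit over 4 days 0 members of any list passed, so the values below describe the 8 libraries, and calls are named only for days 5 to 7. Over those days 8.41% of all tested genes were called higher and 18.2% lower. With the length and GC trend removed these shares were 12.2% and 10.3%.

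Of 27 tested subunits of BAF and of its relative PBAF, a list that includes Smarcc1 itself, 10 were lower and 2 higher in Smarcc1.6 on all 4 days, against 16.7% and 16.1% of all tested genes. Over days 5 to 7 9 were called lower, Smarcc1 among them, and 1 higher, against 18.2% and 8.41% of all tested genes. With the length and GC trend removed 1 was called lower and 3 higher. The balance of all genes turned too, to 10.3% lower and 12.2% higher. The list medians were -0.01, -0.67, -0.36 and 0.01 on days 4 to 7. Arid1a, the DNA-binding subunit that defines canonical BAF, was at 322, 87.8, 89.8 and 164 rpm in Smarcc1.6 and 333, 278, 235 and 190 rpm in Smarcc1.7, a day-5 to 7 difference of -1.09 ± 0.21 (limma adjusted p = 0.00494). In Nons it was at 274, 138, 58.0 and 94.8 rpm, so that Smarcc1.7 was above Nons on each day and Smarcc1.6 was below it on day 5. Its relative Arid1b was at 19.2, 9.003, 13.9 and 31.0 rpm against 20.3, 29.4, 35.7 and 35.7 rpm. The ATPase Smarca4 was at 258, 90.8, 96.7 and 195 rpm against 248, 236, 202 and 199 rpm, apart on days 5 and 6 and level on days 4 and 7. Gltscr1, of the non-canonical complex, went from 7.62 against 6.62 rpm on day 4 to 1.80 against 8.16 rpm on day 5. Bcl11b, at 0.639 to 1.51 rpm in Smarcc1.6 and 1.22 to 4.19 rpm in Smarcc1.7, was lower on all 4 days. Actl6a, the actin-related subunit, was the member called higher, at 326, 387, 249 and 146 rpm in Smarcc1.6 and 302, 241, 166 and 125 rpm in Smarcc1.7. Arid1a (adjusted p = 0.118), Arid1b (0.229) and Smarca4 (0.56) were not called after the trend was removed, while Actl6a was (0.0299).

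**Figure D4:**
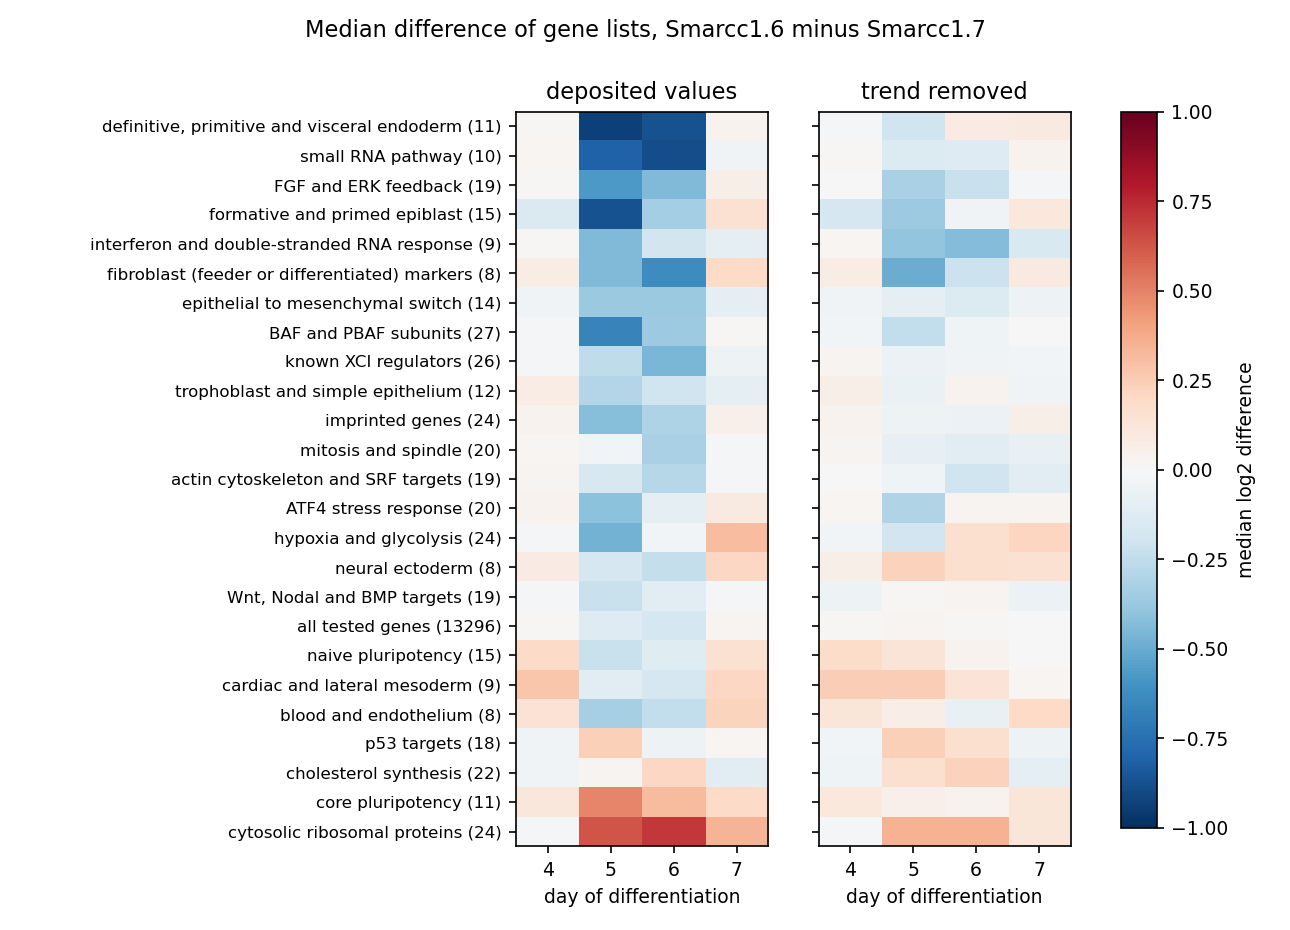
Median log2 difference, Smarcc1.6 minus Smarcc1.7 (colour, from -1 to 1), of gene lists with at least 8 tested members (rows, number tested in brackets) on each day (columns), as deposited and with the length and GC trend removed. Days 4 and 7 are pale for most lists, with ribosomal proteins at 0.34 and hypoxia and glycolysis at 0.31 on day 7. As deposited, days 5 and 6 are blue for most lists and red for core pluripotency and ribosomal proteins. Targets of p53 are red on day 5 (0.24) and cholesterol synthesis on day 6 (0.21). For most lists the colours of days 5 and 6 are fainter after the trend is removed.

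Core pluripotency genes had positive medians of 0.11, 0.49, 0.32 and 0.19 on days 4 to 7, and calls in both directions. Of 11 members 5 were higher and 0 lower on all 4 days (16.1% and 16.7% of all tested genes), and 3 were called higher and 3 lower over days 5 to 7 (8.41% and 18.2% of all). With the trend removed the medians on days 5 and 6 were 0.05 and 0.04, and 2 were called higher and 1 lower. Pou5f1, the factor Oct4, was at 1406, 1450, 907 and 384 rpm in Smarcc1.6 and at 1346, 1035, 498 and 261 rpm in Smarcc1.7. Nons had 1607, 1084, 785 and 227 rpm, below Smarcc1.6 on days 5 to 7. Its difference over days 5 to 7 was 0.64 ± 0.16 (limma adjusted p = 0.0106), and 0.61 with the trend removed (0.00509). Tdgf1, a Nodal co-receptor, was at 918, 1543, 1240 and 308 rpm against 942, 985, 684 and 172 rpm, level on day 4 and higher in Smarcc1.6 from day 5. Nanog was at 284, 208, 262 and 175 rpm against 221, 140, 195 and 131 rpm, with both hairpins above Nons on each day (90.1, 95.8, 127 and 64.5 rpm). Sall4 went the other way, at 299, 75.5, 62.2 and 127 rpm against 273, 150.4, 148 and 149 rpm.

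Naive pluripotency genes moved in both directions. Of 15 tested members 4 were higher and 1 lower on all 4 days (16.1% and 16.7% of all tested genes). Over days 5 to 7 2 were called in each direction, against 8.41% higher and 18.2% lower of all tested genes. The list medians were 0.19, -0.22, -0.12 and 0.16 on days 4 to 7. With the length and GC trend removed the medians were 0.18, 0.13, 0.04 and 0.005. Then 1 member was called in each direction, against 12.2% higher and 10.3% lower of all genes. Dppa3, a maternal factor also active in naive cells, was at 12.5, 74.6, 94.3 and 66.1 rpm in Smarcc1.6 and 11.4, 34.0, 56.3 and 55.8 rpm in Smarcc1.7. It was above Nons (8.04, 19.9, 26.9 and 10.8 rpm) in both. Klf5 was at 17.1, 2.91, 2.98 and 8.51 rpm against 14.7, 6.26, 7.17 and 9.92 rpm, and Tfcp2l1 at 80.8, 12.7, 16.1 and 45.1 rpm against 63.9, 19.3, 39.7 and 61.2 rpm, both lower in Smarcc1.6 from day 5. Nr0b1 was higher in Smarcc1.6 on all 4 days, at 89.1 against 83.4 rpm on day 4 and 1.56 against 0.686 rpm on day 7, but was not called over days 5 to 7 (adjusted p = 0.112). Against Nons, 11 of the 15 tested members were higher in each hairpin (5.78% and 15% of all tested genes), and the contrasts share the Nons libraries.

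Formative epiblast genes, which come up as naive genes go down, were lower in Smarcc1.6 on day 5, with a list median of -0.87, and not on day 7, with 0.15. Of 15 tested members 4 were called lower and 0 higher over days 5 to 7, against 18.2% and 8.41% of all tested genes. With the trend removed 1 was called lower and 3 higher, against 10.3% and 12.2% of all genes. Pou3f1 was at 88.0, 57.3, 50.1 and 81.8 rpm in Smarcc1.6 and 119, 146, 85.8 and 82.0 rpm in Smarcc1.7, and Sall2 at 25.2, 25.1, 31.6 and 42.5 rpm against 32.2, 67.1, 56.8 and 36.9 rpm. Sox3 was at 4.48 against 13.5 rpm on day 5 and 4.30 against 4.18 rpm on day 7. Lef1, a transcription factor and target of Wnt signalling, was at 98.8, 14.8, 4.41 and 5.67 rpm against 106, 32.9, 11.6 and 8.17 rpm. After removal of the trend Pou3f1 was at -0.009 over days 5 to 7 (adjusted p = 0.957) while Lef1 was at -0.77 (0.00591).

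Tcf7 and Axin2, named for having the largest differences of their list, lay with Lef1, and other Wnt targets of the list are not described here. Tcf7, which like Lef1 carries the Wnt signal to DNA, was at 39.3, 20.6, 34.3 and 71.8 rpm in Smarcc1.6 and 46.2, 54.3, 96.8 and 91.4 rpm in Smarcc1.7. Its difference over days 5 to 7 was -1.08 ± 0.21 (limma adjusted p = 0.00468), and -0.999 with the trend removed (0.00374). Axin2, a feedback inhibitor of the pathway, was at 23.7, 1.99, 2.89 and 7.37 rpm against 23.2, 5.46, 6.60 and 11.5 rpm. Id3, a BMP target, was higher in Smarcc1.6 on days 5 to 7, at 69.8, 44.1 and 38.5 rpm against 55.0, 20.9 and 28.7 rpm. In the list of 19 tested Wnt, Nodal and BMP targets 2 were called higher and 3 lower over days 5 to 7 (8.41% and 18.2% of all tested genes). Its medians were -0.02, -0.22, -0.11 and -0.01, near those of all genes.

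Markers of the primitive streak were low in both series. The list of 17 summed to 7.30 to 25.3 rpm in Smarcc1.6 and 12.9 to 28.3 rpm in Smarcc1.7, and 3 of its members passed the filter, of which 1 was called lower. Eomes was at 7.03, 2.12, 4.41 and 10.8 rpm against 7.48, 4.55, 10.1 and 12.8 rpm. The endoderm list (11 of 22 members tested) had a median of -0.93 on day 5, the lowest on that day of lists with at least 8 tested members, -0.87 on day 6 and 0.04 on day 7, with 5 members called lower and 0 higher over days 5 to 7 (18.2% and 8.41% of all tested genes). Its leading members were basement membrane genes with long transcripts. Lamb1 was at 94.7, 47.9, 72.8 and 243 rpm against 94.6, 118, 194 and 301 rpm, Col4a2 at 4.43, 2.12, 6.76 and 39.1 rpm against 3.81, 6.55, 18.9 and 39.5 rpm, and Lama1 at 5.66, 1.99, 6.85 and 19.3 rpm against 6.07, 8.02, 12.9 and 17.03 rpm. After removal of the trend the list medians on days 5 and 6 were -0.20 and 0.09, and 1 member was called lower and 0 higher. Markers of fibroblasts summed to 43.7 to 1679 rpm in Smarcc1.6, 55.4 to 1563 rpm in Smarcc1.7 and 87.6 to 4137 rpm in Nons, with 8 of 14 members in the table tested, 2 called lower and 0 higher. Cardiac, blood and trophoblast lists gave 0, 0 and 3 lower and 0 higher calls among 9, 8 and 12 tested members, and their part in other differences was not tested. The shares of all tested genes called lower and higher were again 18.2% and 8.41%. Hox genes had 3 tested members, of which 0 were called.

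Neural genes did not share a direction. Nes, an intermediate filament of neural progenitors, was at 14.8, 11.8, 27.2 and 73.8 rpm in Smarcc1.6 and 15.4, 38.6, 81.8 and 94.7 rpm in Smarcc1.7, with Nons at 13.0, 31.0, 94.1 and 118 rpm. The difference over days 5 to 7 was -1.22 ± 0.22 (limma adjusted p = 0.00431), and -0.51 with the trend removed (0.0103). Tubb3 and Pax6 had the other sign, at 43.9, 39.2 and 24.2 rpm against 41.3, 22.9 and 15.2 rpm for Tubb3 and 13.1, 17.7 and 11.2 rpm against 9.25, 13.4 and 9.17 rpm for Pax6 on days 5 to 7. They were not called over those days (adjusted p = 0.0554 and 0.147), but with the trend removed both were called higher, at 0.63 for Tubb3 (0.00606) and 0.58 for Pax6 (0.0154). In the list of 8 tested neural ectoderm genes 0 were called higher and 1 lower (8.41% and 18.2% of all tested genes). With the trend removed 2 were called higher and 1 lower (12.2% and 10.3% of all genes). In the list of genes that switch between epithelial and mesenchymal states, 6 of 14 tested members were called lower and 0 higher (18.2% and 8.41% of all tested genes), and 3 lower and 2 higher with the trend removed. Fn1, fibronectin, was at 172, 25.4, 34.3 and 130 rpm against 196, 89.6, 115 and 145 rpm. The epithelial splicing factor Esrp1 and the claudin Cldn6 were lower in Smarcc1.6 on all 4 days as well. Cldn6, at 9.08, 32.0, 75.7 and 174 rpm against 13.4, 56.8, 109 and 208 rpm, was below Nons (24.8, 75.5, 174 and 384 rpm) on each day in both.

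Ribosomal protein genes, which are short and abundant, were higher in Smarcc1.6. Of 24 tested members 9 were higher and 0 lower on all 4 days (16.1% and 16.7% of all tested genes). Over days 5 to 7 19 were called higher and 0 lower (8.41% and 18.2% of all tested genes). The list medians were -0.02, 0.63, 0.70 and 0.34 on days 4 to 7. Rps3 was at 2262, 5332, 7064 and 4207 rpm in Smarcc1.6 and 2309, 3271, 4000 and 3070 rpm in Smarcc1.7. Rps24 was at 692, 2162, 2452 and 1268 rpm against 717, 1183, 1392 and 993 rpm, and Rps27 at 457, 1340, 1673 and 951 rpm against 539, 655, 922 and 632 rpm. Rpl37 had a difference of 0.69 ± 0.16 over days 5 to 7 (limma adjusted p = 0.00791). The list summed to 23566 to 67351 rpm in Smarcc1.6, 23796 to 42762 rpm in Smarcc1.7 and 29478 to 66740 rpm in Nons. The highest Smarcc1.7 sum was below those of both others, but the order changed by day. On day 4 both hairpins (23566 and 23796 rpm) were below Nons (29478 rpm). On day 5 Smarcc1.6 was at 53030 rpm, Nons at 40904 rpm and Smarcc1.7 at 34733 rpm. On days 6 and 7 Smarcc1.6 (67351 and 43494 rpm) was near Nons (66740 and 46267 rpm), with Smarcc1.7 lower (42762 and 35664 rpm). Against Nons 12 of 24 were lower in Smarcc1.7 and 0 in Smarcc1.6 (7.38% and 3.71% of all tested genes). Once the trend was removed 8 were called higher and 0 lower (12.2% and 10.3% of all genes), with medians of 0.35 on both day 5 and day 6. The list median over 4 days was 0.42 as deposited and 0.15 with quantile normalization.

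Genes of mitosis had a list median over 4 days of -0.11, which was -0.003 with centring and 0.008 with stage position as a covariate. Of 20 tested members 5 were called lower and 1 higher over days 5 to 7, not far from the 18.2% and 8.41% of all tested genes, and 7 lower and 2 higher with the trend removed (10.3% and 12.2% of all genes). Cenpe, a kinetochore motor, was at 148, 69.0, 69.8 and 147 rpm in Smarcc1.6 and 157, 152, 184 and 185 rpm in Smarcc1.7. Cenpf was at 261, 91.3, 94.6 and 182 rpm against 275, 178, 251 and 245 rpm. The kinase Plk1 was at 142, 67.1, 69.9 and 118 rpm against 133, 149, 122 and 127 rpm, level on days 4 and 7. After the trend was removed the difference of Plk1 over days 5 to 7 was -0.55 (adjusted p = 0.00934), and that of Kif23, a motor of cytokinesis, was -0.55 (0.00935). The list summed to 4128 to 5170 rpm in Smarcc1.6 and 4503 to 5153 rpm in Smarcc1.7.

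Regulators of X inactivation were examined because the study concerns that process, although these cells are male. Of 26 tested members 9 were called lower and 0 higher over days 5 to 7, against 18.2% and 8.41% of all tested genes. With the trend removed 4 were called lower and 1 higher, near the shares of all genes for lower calls (10.3%) and under them for higher ones (12.2%). Spen, the repressor that Xist RNA recruits, was at 91.7, 17.4, 23.1 and 49.1 rpm in Smarcc1.6 and 93.0, 52.7, 60.8 and 65.5 rpm in Smarcc1.7, and had a long transcript. Once the trend was removed it was not called (adjusted p = 0.466), whereas the chromatin remodeller Atrx was (0.0187), at 440.4, 163, 147 and 203 rpm against 460.1, 276, 318 and 264 rpm. Tsix, the antisense partner of Xist, was lower in Smarcc1.6 on all 4 days, at 8.44, 5.03, 4.58 and 5.31 rpm against 11.3, 10.3, 6.73 and 7.98 rpm. Whether strand was used in counting is not given in the sources used here, so its reads and those of Xist cannot be told apart.

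The small RNA pathway was included because the hairpins pass through it. Of 10 tested members 6 were called lower and 0 higher over days 5 to 7 (18.2% and 8.41% of all tested genes), with medians of 0.02, -0.81, -0.89 and -0.03. Dicer1, which cuts the hairpin loop, was at 114, 62.0, 72.6 and 121 rpm in Smarcc1.6 and 117, 123, 142 and 144 rpm in Smarcc1.7. The Argonaute partners Tnrc6a, Tnrc6b and Tnrc6c had average differences over 4 days of -0.57, -0.67 and -0.69, and of -0.03, -0.08 and 0.06 on day 4. The median transcript of these genes had 6154 bases, and with the trend removed 0 were called lower and 1 higher. In the interferon and double-stranded RNA list, 2 of 9 tested members were called lower and 0 higher, both before and after the trend was removed. Oasl2 was at 0.73, 4.02, 13.5 and 26.8 rpm in Smarcc1.6 and 2.63, 12, 28.4 and 26.4 rpm in Smarcc1.7, lower on days 4 to 6 and level on day 7. Nons stayed at 6.70, 9.67, 9.80 and 7.94 rpm. Rsad2, an antiviral enzyme, was at 1.00, 0.139, 0.623 and 2.24 rpm against 0.997, 0.427, 1.78 and 2.99 rpm, of which the day-5 value of Smarcc1.6 is near the floor of 3 reads.

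Single genes were named for the days 5 to 7 by a rule first meant for the fit over 4 days, where 0 genes met it, and this use was chosen after the values were seen. The rule takes the largest differences among called genes with a mean of at least 2 on the log2 rpm scale and the same sign on all 4 days, which 541 genes met as higher and 1007 as lower. The largest fall was in 3010003L21Rik, a transcript of no known function, at 3.79, 4.16, 3.69 and 2.70 rpm in Smarcc1.6 and 11.5, 20.9, 25.3 and 8.42 rpm in Smarcc1.7. Nons had 4.51, 2.53, 1.40 and 11.6 rpm, so Smarcc1.7 stood above both on days 4 to 6. Its series did not overlap, the average difference over 4 days was -2.09 ± 0.23 (limma, unadjusted p = 1.1e-05, adjusted p = 0.153), and it was the gene called when day 7 was left out. With -1.60 on day 4 it was among the 63 genes (0.474%) then over 2-fold lower.

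The receptors Notch1 and Notch3 were among the 12 largest falls. Notch1 was at 23.8, 8.22, 15.8 and 54.2 rpm in Smarcc1.6 and 25.5, 35.0, 59.4 and 82.1 rpm in Smarcc1.7. Notch3 was at 50.7, 30.2, 78.3 and 204 rpm against 54.5, 130.4, 279.5 and 281 rpm. Both were close on day 4, at -0.10 and -0.11 on the log2 scale, and apart on day 5, at -2.09 and -2.11. Kif1a, a neuronal kinesin, was at 1.83, 7.99, 39.2 and 103 rpm against 2.40, 32.9, 141 and 153 rpm, below Nons (3.09, 41.5, 104 and 214 rpm) on each day in Smarcc1.6. The list also held the basement membrane proteoglycan Hspg2, the non-muscle myosin Myh9 and the receptor Igf1r. Myh9 was at 255, 68.7, 230.1 and 697 rpm against 272, 275, 811 and 915 rpm. All were long transcripts, and with the trend removed the difference of Notch1 over days 5 to 7 went from -1.53 to -0.60 (adjusted p = 0.00575), that of Kif1a from -1.49 to -0.74 (0.00409) and that of Hspg2 from -1.47 to -0.31 (0.035).

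**Figure D5:**
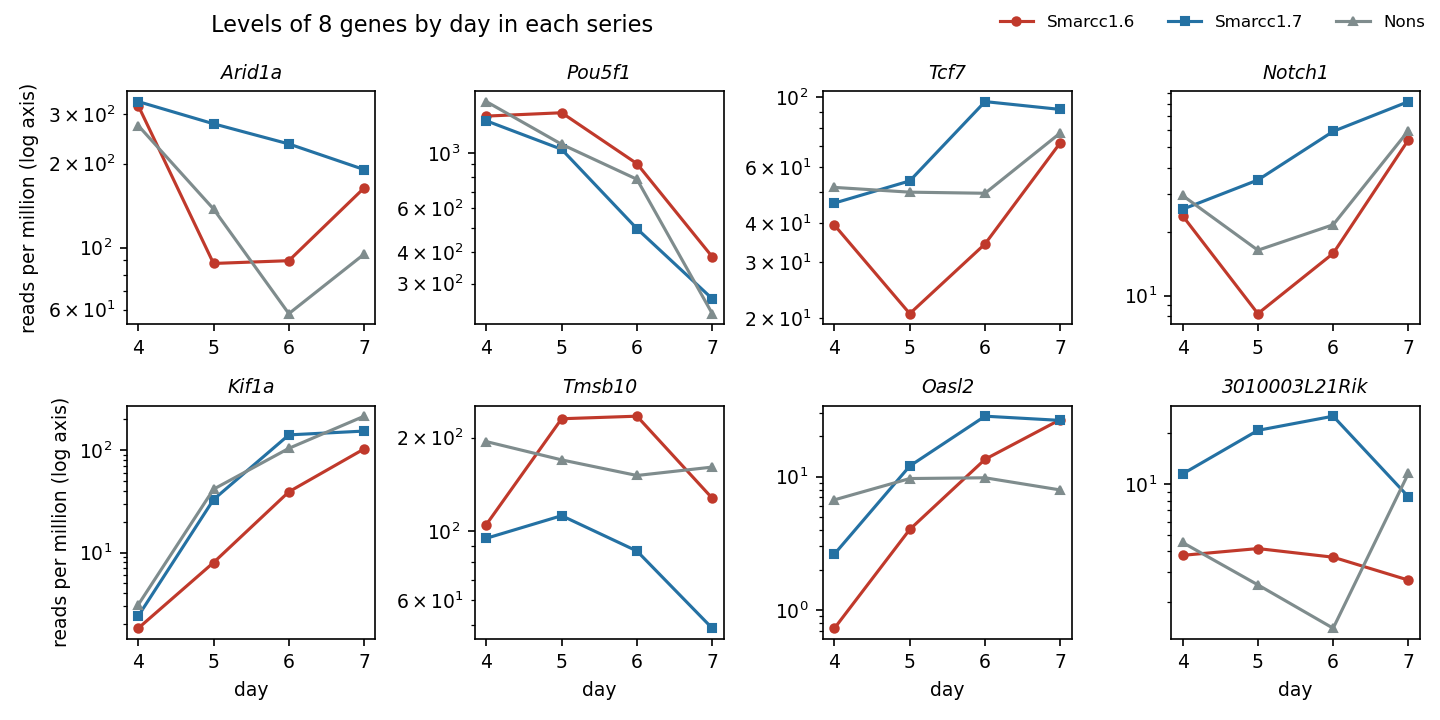
Levels of 8 named genes in rpm (vertical log axes) by day in Smarcc1.6, Smarcc1.7 and Nons, 1 library per point. For Arid1a, Tcf7, Notch1 and Kif1a the hairpins are close on day 4 and separate on days 5 and 6, Pou5f1 and Tmsb10 lie higher in Smarcc1.6 from day 5, Oasl2 meets on day 7, and 3010003L21Rik is apart on each day.

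Among the 12 largest rises Tmsb10, which encodes the actin-binding thymosin beta 10, kept its size with the trend removed. It was at 105, 230.1, 234 and 128 rpm in Smarcc1.6 and 95.0, 112, 86.5 and 48.8 rpm in Smarcc1.7, with Nons at 194, 169.7, 151 and 161 rpm. The difference over days 5 to 7 was 1.29 ± 0.17 (limma adjusted p = 0.00169), and 1.17 with the trend removed (0.000127). Gc, the vitamin D binding protein, was at 18.1, 41.0, 9.83 and 3.75 rpm against 16.9, 17.9, 4.51 and 1.37 rpm. 2410004A20Rik was higher in Smarcc1.6 on all 4 days, at 59.3, 24.9, 17.2 and 13.5 rpm against 42.3, 13.3, 6.67 and 7.23 rpm, and both were above Nons (11.1, 3.14, 0.255 and 0.16 rpm). Aard was at 61.5, 22.6, 13.3 and 6.36 rpm against 55.7, 9.39, 5.21 and 3.74 rpm, and Npl, a sialic acid lyase, at 33.5, 26.0, 18.8 and 12.3 rpm against 26.7, 9.11, 9.39 and 8.42 rpm. Gm3788 and Gm9844 had nearly equal values in each library, at 8.63 and 8.63 rpm on day 5 in Smarcc1.6, so their reads cannot be told apart. Lars2 and Gm15564 were far higher in a single Smarcc1.7 library, day 5, at 3068 and 608 rpm, against 415 and 73.2 rpm in Smarcc1.6. Nons was also high on that day, at 2567 and 490.2 rpm.

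The genes with the smallest p for a change of the difference over days were Oasl2, Crisp1, Gm3788, Gm9781 and Gm9844. None passed, as each had an adjusted p of 1.0 in limma. The difference of Oasl2 went from -1.85 on day 4 to 0.02 on day 7. That of Crisp1 went from 0.002 to 2.40, with the day-7 level of Smarcc1.7 at 0.374 rpm, and that of Gm9781 from 1.45 to -0.48.

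Transcripts with a seed match were compared last, since the guides differ in seed. The letters searched were the complement of guide bases 2 to 8, CAGTTAC for Smarcc1.6 and ATGAGCA for Smarcc1.7, on the transcript strand only. After the stop codon, 1053 of 12435 tested coding genes (8.47%) held the Smarcc1.6 match and 1112 (8.94%) the Smarcc1.7 match. The median difference over 4 days was -0.17 for genes with the Smarcc1.6 match, -0.14 for those with the Smarcc1.7 match and -0.07 for all coding genes tested. Genes with either match had long transcripts, of 4582 and 4636 bases at the median against 2981 for all. With the trend removed the medians were 0.006, 0.05 and 0.01. On day 4, when the trend was absent, they were -0.004, 0.007 and 0.01, and on day 6 they were -0.38, -0.33 and -0.18. With a match anywhere in the transcript, 2202 and 3248 genes, the medians over 4 days were -0.20 and -0.19, and -0.02 and -0.004 with the trend removed. Before the trend was removed, genes with either match thus lay below all genes on days 5 and 6. Its removal brought them within 0.05 log2 units of all genes over 4 days. On days 5 and 6 alone the medians for a match after the stop codon were then 0.04 and 0.007 for Smarcc1.6. They were 0.09 and 0.08 for Smarcc1.7, and 0.04 and 0.02 for all coding genes. Whether this came from the seeds was not tested, and a match is no proof of a site.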

How the data were processed

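Single-end 75 bp reads were trimmed (trim_galore) and mapped to mm10 by the authors, who deposited log2 rpm values per gene from SeqMonk. The sample records name HISAT2 for mapping, where the paper gives tophat or HISAT2 for its RNA-seq in general. The annotation release is not given in the sources used here. Each library has a lowest value of 0.9 of a read, from which whole reads and library totals were recovered (100% of values under 1000 reads lay within 0.05 of a whole number). Smarcc1.6 and Smarcc1.7 were compared with limma 3.58.1 in R 4.3.3 (lmFit, eBayes with trend) on the log2 rpm values of 8 libraries, with day as a pairing factor and Benjamini-Hochberg adjustment over 13296 genes at 0.05. The fit was tested on simulated data. The pairing by day comes from the harvest days. Named genes were Smarcc1 and its complex, at most 4 members per list with the largest difference, up to 12 rises and 12 falls, and 5 genes for the change over days. The members and lists were chosen with earlier results of these data known. Transcript length and GC came from GENCODE M21 (GRCm38), 1 transcript per gene, for 13050 tested genes, 11960 by symbol and 1090 by synonym. Their trend was removed from each library with natural splines of 4 degrees of freedom, a step added after seeing the data. Counting error is covered by no interval here, and 3 reads, the detection floor, are worth 0.133 to 0.19 rpm in these libraries. Second Nons libraries of these days, 4 in the labels, were not used here.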

Additional observations from a re-analysis of the deposited data

Results flagged for a closer look

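With 90 sets of 4 daily values examined, 2 had a day far from the other 3, where chance gives about 1 in 20. The daily difference of Ankrd37, a hypoxia-induced gene, was lowest on day 4, at 0.10, against 0.74, 0.76 and 0.84 on days 5 to 7. Its level was 18.1, 75.1, 46.1 and 20.3 rpm in Smarcc1.6 and 16.9, 45.0, 27.2 and 11.3 rpm in Smarcc1.7. The daily difference of Gm15564 was lowest on day 5, at -3.06, against -0.43, -0.56 and -0.87 on the other days, when reads outside listed genes were also at their highest in Smarcc1.7 (14.4%). Its part in that value was not tested.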

How the results depend on the processing

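The count of genes apart over 4 days was 0 in the paired fit with day as a block and 0 without the replicate block, where 138 genes had an unadjusted p under 0.05 (limma). It was 0 with all libraries, limma-voom on recovered reads, quantile normalization, 1 added to rpm and a mean of at least 10 rpm, and 1 with median centring, no filter and the length and GC trend removed (3010003L21Rik in each) and with stage position as a covariate (C230073G13Rik). Leaving out days gave 0 to 3542 genes, the highest without day 4. Without day 4 it was also 2931 with the trend removed, 4629 with centring and 2890 with the 10 rpm filter. Smarcc1 was at -0.62 to -0.41 over the fits leaving out a day, past the threshold without day 4 (adjusted p = 0.0215), and then also with centring (-0.47) and the 10 rpm filter (-0.61), but not with the trend removed (-0.17, adjusted p = 0.225). The change of the difference over days gave 0 to 1475 genes when a day was left out, with 1 residual degree of freedom.

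The stage difference turned to 0.0147 days over the tested genes alone, 0.0294 with 1 added to rpm and 0.00204 with centring, and was -0.0717 over the 500 most variable genes and -0.0291 on a path through the Smarca4 libraries, and the distance difference to -0.87 and -1.86 with the first 2 of these. Over the 500 most variable genes the distance difference was 3.95 and positive on 4 of 4 days (exact p = 0.13, the smallest possible). Leaving out a day gave -0.03 to -0.009 days and 1.98 to 9.78. The correlation with the stage slope stayed between -0.20 and -0.14. Counts against Nons were 2429 for Smarcc1.6 and 3163 for Smarcc1.7 with the trend removed, and over left-out days 381 to 1230 for Smarcc1.6 and 118 to 3103 for Smarcc1.7. The Smarca4 pair gave 0 to 1. List medians of naive pluripotency, neural ectoderm, hypoxia, cardiac, Wnt, ATF4 and Hox genes, all within 0.08 of 0, changed sign with centring. With the length and GC trend removed those of imprinted genes (-0.12 to 0.07) and trophoblast genes (-0.15 to 0.004) also changed sign. For 76 genes named with values in the text, besides Smarcc1, the direction was the same in all alternatives run. Other members of the complex and of the lists were not checked in this way. An edgeR fit on the recovered reads was planned and not run, while limma-voom was run on them. With 1 culture per hairpin, 1 Nons series and 4 days, differences of the hairpin and of its culture cannot be told apart. Depth limits genes near 3 reads.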

Other observations

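Genes of hypoxia and glycolysis had medians of -0.01, -0.47, -0.03 and 0.31 on days 4 to 7. Of 24 tested members 3 were called higher and 5 lower over days 5 to 7 (8.41% and 18.2% of all tested genes). With the length and GC trend removed 4 were called higher and 2 lower (12.2% and 10.3% of all genes). Vegfa, the vascular growth factor, was at 12.4, 22.9, 65.4 and 115 rpm in Smarcc1.6 and 13.5, 64.1, 117 and 128 rpm in Smarcc1.7, and Ndrg1 at 8.76, 10.7, 23.7 and 53.2 rpm against 10.9, 28.1, 50.02 and 53.7 rpm. Hexokinase 2 (Hk2) was at 234, 84.4, 84.0 and 119 rpm against 229.9, 235, 159 and 116 rpm. FGF and ERK feedback genes gave 5 lower and 0 higher of 19 (18.2% and 8.41% of all tested genes). With the trend removed 1 was called lower and 3 higher, against 10.3% and 12.2% of all genes. Spry1, an inhibitor of FGF signalling, was at 6.53, 4.43, 11.2 and 25.6 rpm against 7.16, 12, 26.6 and 32.1 rpm. After removal of the trend Spry1 was called (limma adjusted p = 0.00673), as was Vegfa (0.00691), and Hk2 was not (0.167).

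The counts below are calls over days 5 to 7, when 8.41% of all tested genes were called higher and 18.2% lower. With the trend removed these shares were 12.2% and 10.3%. Targets of p53 gave 1 higher and 2 lower of 18, with Bax higher at 217, 210.3, 193 and 144 rpm against 210.1, 169, 119.7 and 103 rpm and Zmat3 lower at 145, 62.4, 56.8 and 125 rpm against 149, 133, 127 and 154 rpm. Cholesterol synthesis gave 1 higher and 3 lower of 22, Ebp being higher and Srebf2, the pathway's transcription factor, lower, at 77.1 against 186 rpm on day 5 and 355 against 407 rpm on day 7. With the trend removed these lists gave 3 higher and 1 lower, and 4 higher and 2 lower. The ATF4 list gave 0 higher and 2 lower of 20 (2 and 3 with the trend removed), and actin and SRF targets 0 and 5 of 19 (0 and 6). Imprinted genes gave 0 and 6 of 24, and 2 and 1 with the trend removed. Of the 4 Y-linked genes, a check of male cells, all were tested and 0 were called, with sums of 246 to 343 rpm in Smarcc1.6 and 224 to 273 rpm in Smarcc1.7.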
